A study of Mus musculus with 7 samples.

Results

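Vitamin A (retinol) acts in most tissues through its oxidised form, retinoic acid. Retinol enters a cell through the membrane receptor Stra6, is oxidised by retinol dehydrogenases and then by retinaldehyde dehydrogenases such as Aldh1a1, and the retinoic acid formed is carried by the cellular binding proteins Crabp1 and Crabp2. In the nucleus it binds the receptors Rara, Rarb and Rarg, which pair with Rxra on repeated half-sites in the DNA, and enzymes of the Cyp26 family break it down. Retinoic acid is best known in muscle for its effects on the differentiation of myogenic cells. The transcripts of these 9 genes were examined in C2C12 cells, a mouse line of myoblasts that fuse into myotubes. The genes were chosen from the pathway of Stra6, and Stra6 itself was chosen from its lower level in the comparison given here, so its values are a description without a test. The 9 genes are 9 of 31829 gene names on the array and have 12 of its 39429 probes.

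The cells were C2C12 recipients incubated for 24 h with exosomes, the small vesicles that cells release, which had been collected from other C2C12 cultures. In the EXO-Palm group the donor cells had been treated with palmitate at 0.5 mM, and in the EXO-BSA group with BSA, the carrier protein alone. Data came from 4 EXO-BSA and 3 EXO-Palm arrays labelled as biological replicates, each with 1 RNA sample in 1 colour. All recipients were kept in serum-free medium, and the donors had been free of palmitate for 9 h when the exosomes were collected. The study calls the recipients myotubes and the labels give the cell type as myoblast. One cell line was used throughout, and no array of cells without exosomes was analysed here.

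Each value below is the log2 of a probe's processed intensity minus the 75th percentile of its array, so 0 is that percentile, and a difference is EXO-Palm minus EXO-BSA. That percentile was an intensity between 549.4 and 1621, and between 48.5 and 70.3% of the probes were well above background, as the scanner software calls it, with the highest share on EXO-Palm replicate 1. Correlations of the values over the 21585 probes that entered the test were 0.962 to 0.984 within EXO-BSA, 0.948 to 0.970 within EXO-Palm and 0.946 to 0.985 between them. All 10 muscle markers examined were well above background on all 7 arrays, and none of them passed the test between the groups. Of 6 markers of dividing cells 5 were tested and all 5 were higher in EXO-Palm, with a median difference of 2.36, and 3 passed the test (Ccnb1, Top2a and Mki67). Their summed level, in units of the 75th percentile, was 3.58 to 4.94 in EXO-BSA and 11.7 to 33.4 in EXO-Palm, and the part of this in the differences below was not tested. All 4 fibroblast markers were tested and none passed. Col1a1 was lower in EXO-Palm, by -1.64 (limma, adjusted p = 0.070), and the other 3 had higher means. No adipocyte marker of 4 could be tested. Of the macrophage markers Ptprc and Cd68 were near background, while Csf1r and Adgre1 were tested and did not pass. Csf1r was well above background on all 7 arrays. Of the endothelial markers Cdh5 was near background, while Pecam1 and Kdr were well above it on all 7 arrays and did not pass. Fewer cells with a transcript and less transcript per cell cannot be told apart in these bulk samples.

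The DNA next to the start sites of 4 genes is shown because retinoic acid receptors bind pairs of a 6-base half-site in the same orientation. The half-sites searched were AGGTCA with its relative GGGTCA, together with AGTTCA and its relative GGTTCA, on either strand, as single sites and as direct repeats with 1, 2 or 5 bases between them, in windows from 250 bases before to 50 bases after each start site (RefSeq, GRCm38.p6). In the 100 bases before the start site given here, capitals mark the half-sites.
Rarb, chr14:16575477-16575576, minus strand: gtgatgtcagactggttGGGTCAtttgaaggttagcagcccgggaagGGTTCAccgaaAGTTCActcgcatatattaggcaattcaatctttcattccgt
Cyp26a1, chr19:37697708-37697807, plus strand: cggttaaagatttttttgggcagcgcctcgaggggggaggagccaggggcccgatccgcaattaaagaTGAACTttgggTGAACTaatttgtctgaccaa
Cyp26b1, chr6:84593811-84593910, minus strand: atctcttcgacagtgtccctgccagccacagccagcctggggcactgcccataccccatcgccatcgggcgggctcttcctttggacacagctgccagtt
Stra6, chr9:58128988-58129087, plus strand: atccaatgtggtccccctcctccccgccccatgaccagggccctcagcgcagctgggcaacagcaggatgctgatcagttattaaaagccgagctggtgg
The Rarb window held a direct repeat with 5 bases between the half-sites, starting at position -53 from the start site, and it was the only 1 of 17 windows of the 9 genes with any of these direct repeats. Crabp2 had no entry. Such a repeat with a spacer of 5 was found in 32 of 32851 windows of all genes (0.0974%), and any of the direct repeats in 193 (0.588%). Single half-sites were common, in 7 of the 17 windows and in 43.7% of all windows. Cyp26a1, a sister enzyme of Cyp26b1 that is not among the 9, also had the repeat with a spacer of 5, on the opposite strand at position -32. The window of Cyp26b1 and 3 of the 4 windows of Stra6 held none of the half-sites.

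Stra6, the cell-surface receptor for retinol, was dim in EXO-BSA and dimmer in EXO-Palm. Its probe lies at chr9:58001701-58001760 on the plus strand (mm9), at the end of the transcript. The values were -3.32, -2.98, -3.08 and -2.90 on EXO-BSA replicates 1 to 4, and -4.97, -5.98 and -5.80 on EXO-Palm replicates 1 to 3. Every EXO-Palm array was thus below every EXO-BSA array, and the gap between the groups was wider than the range within either. The means were -3.07 ± 0.18 (SD, n = 4) and -5.59 ± 0.54 (SD, n = 3), a difference of -2.52, or a signal 5.72-fold lower.

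Stra6 lay close to the background of the arrays. Its processed intensities, after background subtraction, were 116, 114, 101 and 97.5 in EXO-BSA and 51.6, 10.3 and 9.85 in EXO-Palm. The probe was well above background on all 4 EXO-BSA arrays and in EXO-Palm on replicate 1 alone. That array had the most probes well above background, and its value of -4.97 was below the lowest value called well above background on EXO-Palm replicate 2 (-4.38) and replicate 3 (-4.59). With each dim value raised to that lowest value the difference was -1.58. How much lower Stra6 was therefore depended on the background correction. With normexp, a correction that models the background and here adds an offset of 50, and quantile normalisation the difference was -1.05. An offset of this size by itself shrinks log2 differences between signals this dim. In the authors' own log2 values the difference was -1.69. Each of these calculations, on the same arrays by which Stra6 was chosen, placed all 3 EXO-Palm arrays below all 4 EXO-BSA arrays.

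Stra6 was chosen by its fall over these same arrays, so its values by slide and with arrays left out are a description, not separate support. Its difference was seen on both slides that held arrays of the 2 groups. On slide 1, with EXO-BSA replicates 1 and 2 and EXO-Palm replicate 1, it was -1.82, and on slide 3, with EXO-BSA replicate 4 and EXO-Palm replicate 3, it was -2.91. The latter array was not well above background for Stra6, and with its value raised to the lowest one called so the difference on slide 3 was -1.69. From the values as measured, dim ones included, the difference was -2.29 with slide as a block, and with any single array left out it lay between -2.82 and -2.32. The block fit draws its difference from slides 1 and 3 alone, since EXO-BSA replicate 3 and EXO-Palm replicate 2 were each alone on a slide.

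**Figure D1:**
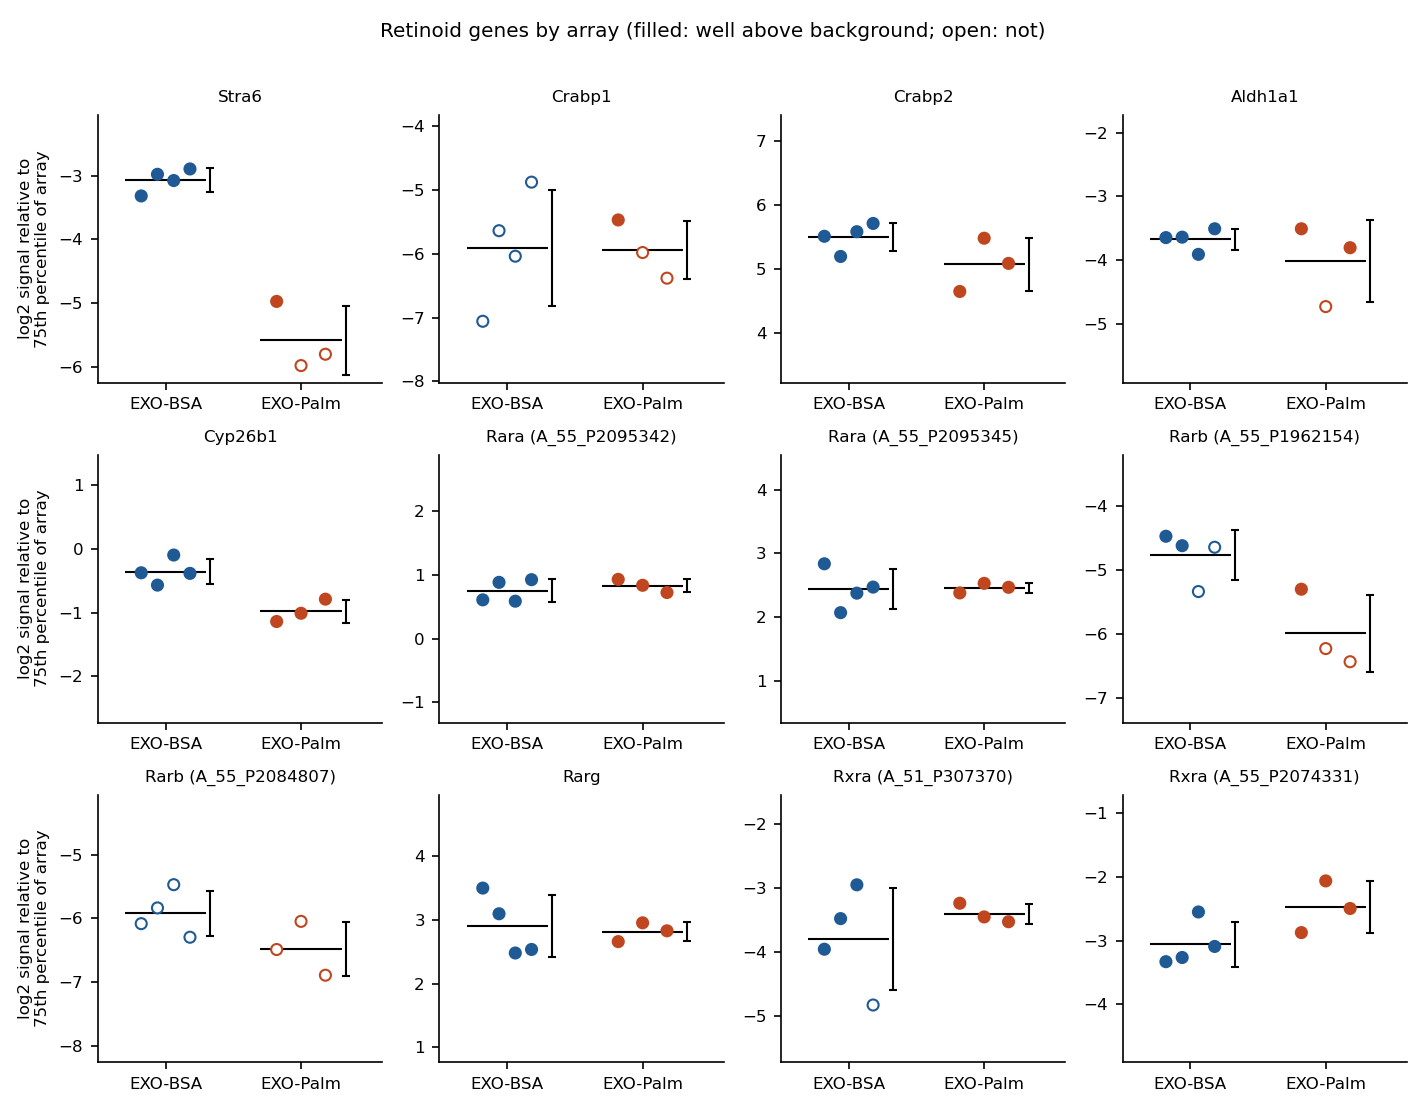
Values of the 12 probes on each array, as log2 signal relative to the 75th percentile of the array (vertical axis, the same span in every panel), for EXO-BSA (blue, 4 arrays) and EXO-Palm (red, 3 arrays). Filled points were well above background and open points were not, horizontal lines are means and bars are the SD. The groups are separate for Stra6 and Cyp26b1 and overlap in the other 10 panels.

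Of the binding proteins, Crabp2 was bright and Crabp1 was at background. Crabp2 carries retinoic acid to its nuclear receptors, and its probe (chr3:87757207-87757266, plus strand, mm9) read 5.51, 5.20, 5.58 and 5.71 in EXO-BSA and 4.65, 5.48 and 5.09 in EXO-Palm. EXO-Palm replicate 1 was the lowest of the 7 arrays, and replicate 2 lay within the EXO-BSA range. The difference was -0.43 with an SE of 0.253 and a 95% interval of -1.01 to 0.15, which did not pass the test (limma, adjusted p = 0.619; exact permutation p = 0.143). Crabp2 was lower in EXO-Palm on both shared slides, by -0.71 on slide 1 and -0.63 on slide 3, and with slide as a block the difference was -0.67 (limma, adjusted p = 0.466). Without EXO-Palm replicate 1 it was -0.22.

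Crabp1, a related protein that holds retinoic acid in the cytoplasm, was well above background on 1 array of 7, EXO-Palm replicate 1, and was not tested. Its 60-base probe, at chr9:54616192-54616251 on the plus strand (mm9), reads part of the coding sequence and is printed because it is the only probe of this gene.
Crabp1 probe: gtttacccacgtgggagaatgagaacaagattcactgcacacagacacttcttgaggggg
The values were -7.06, -5.64, -6.04 and -4.87 in EXO-BSA and -5.47, -5.98 and -6.38 in EXO-Palm. Both groups had their values mixed, and none of the EXO-BSA arrays gave more than a bound on the level of Crabp1.

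Aldh1a1, which makes retinoic acid from retinaldehyde, was dim in both groups. Its probe (chr19:20717764-20717823, plus strand, mm9) read -3.65, -3.64, -3.91 and -3.51 in EXO-BSA and -3.51, -4.73 and -3.81 in EXO-Palm. Only EXO-Palm replicate 2 stood below the EXO-BSA range, and the probe was not well above background on that array. The difference of -0.34 (SE 0.302, 95% interval -1.03 to 0.35) did not pass the test (limma, adjusted p = 0.749; exact permutation p = 0.40). Without EXO-Palm replicate 2 it was 0.02, so the lower mean rested on that array.

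Cyp26b1, which inactivates retinoic acid, was the second gene of the 9 with separate groups. Its probe lies at chr6:84521952-84522011 on the minus strand (mm9). The values were -0.38, -0.57, -0.10 and -0.39 in EXO-BSA and -1.14, -1.01 and -0.79 in EXO-Palm. Each EXO-Palm array was below each EXO-BSA array, and all 7 arrays were well above background. The signal in EXO-Palm was 64.9% of that in EXO-BSA, a difference of -0.62 with an SE of 0.207 and a 95% interval of -1.09 to -0.15. Over the whole table this did not pass the test (limma, adjusted p = 0.352, unadjusted p = 0.0153). The 2-sided exact permutation test gave p = 0.0286, the smallest that the 35 splits of 7 arrays allow. Within slides the difference was -0.67 and -0.40. The lower values of Cyp26b1 were less dependent on the background than those of Stra6, with -0.52 under normexp and -0.56 in the authors' values.

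Separate groups were no rarity in these data. Of 21585 probes tested, 11.0% had groups that did not overlap, 5.67% with EXO-Palm lower and 5.32% with it higher, and 0.533% passed the adjusted threshold of 0.05, 0.463% higher and 0.0695% lower. Of the 12 probes, 9 were tested, from 7 genes, and Stra6 and Cyp26b1 were the 2 whose groups did not overlap. Stra6, picked for this contrast, was the only 1 of the 12 past the threshold, and nothing is read from that count.

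Rara, the retinoic acid receptor found in most tissues, was measured by a pair of probes and differed little. The first (chr11:98835350-98835409, plus strand, mm9) read 0.61, 0.88, 0.59 and 0.92 in EXO-BSA and 0.93, 0.84 and 0.72 in EXO-Palm. The second, at the end of the transcript (chr11:98836197-98836256), read 2.84, 2.07, 2.38 and 2.47 in EXO-BSA and 2.38, 2.53 and 2.47 in EXO-Palm. The groups overlapped at both probes, and for the second the EXO-Palm values fell inside the EXO-BSA range. The differences were 0.08 (SE 0.197, 95% interval -0.37 to 0.53, limma adjusted p = 0.922, exact permutation p = 0.486) and 0.02 (SE 0.228, 95% interval -0.50 to 0.54, limma adjusted p = 0.986, exact permutation p = 0.857). Neither interval reached beyond 0.54 in either direction, and the sign at the second probe depended on the normalisation.

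Rarb, a receptor whose own promoter is a known target of retinoic acid, was near the limit of detection. Its probe at the end of the transcript (chr14:17263367-17263426, minus strand, mm9) was well above background on 3 arrays, EXO-BSA replicates 1 and 2 and EXO-Palm replicate 1, which are the 3 arrays of slide 1. It read -4.47, -4.62, -5.34 and -4.64 in EXO-BSA and -5.30, -6.23 and -6.44 in EXO-Palm. EXO-BSA replicate 3 lay just below EXO-Palm replicate 1, so the groups overlapped by that 1 array. The other probe, at chr14:17264648-17264707, reads the last part of the coding sequence and was not well above background on any array.
Rarb coding probe: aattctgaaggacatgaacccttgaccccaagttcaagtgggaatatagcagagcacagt
Its values were -6.08, -5.83, -5.47 and -6.29 in EXO-BSA and -6.49, -6.05 and -6.89 in EXO-Palm. Neither Rarb probe passed the filter on dim signals, and neither was tested. The level of the receptor whose upstream DNA holds the direct repeat shown above was thus only bounded on 4 of the 7 arrays.

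Rarg, the third receptor of this kind, was bright and differed little in the mean. Its probe (chr15:102065371-102065430, minus strand, mm9) read 3.50, 3.097, 2.48 and 2.54 in EXO-BSA and 2.66, 2.95 and 2.83 in EXO-Palm. The EXO-Palm values all lay inside the EXO-BSA range, whose SD was 0.485 with the highest values on the 2 EXO-BSA arrays of slide 1. The difference was -0.09 (SE 0.285, 95% interval -0.74 to 0.56, limma adjusted p = 0.942, exact permutation p = 0.771). It was -0.64 on slide 1 and 0.29 on slide 3, and without EXO-BSA replicate 1 it was 0.11.

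Rxra, the partner of all 3 retinoic acid receptors and of several other nuclear receptors, had higher means in EXO-Palm at both of its probes. The first (chr2:27615316-27615375, plus strand, mm9) read -3.96, -3.48, -2.95 and -4.83 in EXO-BSA and -3.24, -3.45 and -3.53 in EXO-Palm. The second (chr2:27618781-27618839) read -3.33, -3.27, -2.55 and -3.09 in EXO-BSA and -2.88, -2.07 and -2.50 in EXO-Palm. The groups overlapped at both. EXO-BSA replicate 3 was the highest array at the first probe and lay among the EXO-Palm values at the second, and EXO-BSA replicate 4 was not well above background at the first. The differences were 0.40 (SE 0.404, 95% interval -0.52 to 1.32, limma adjusted p = 0.780, exact permutation p = 0.514) and 0.58 (SE 0.280, 95% interval -0.06 to 1.22, limma adjusted p = 0.539, exact permutation p = 0.114). Neither passed the test, while both had the same sign on both slides, with 0.48 and 1.31 for the first probe and 0.42 and 0.60 for the second. The difference of the first probe rested on EXO-BSA replicate 4, the dim array, and was 0.06 without it. That of the second was 0.37 without EXO-Palm replicate 2.

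**Figure D2:**
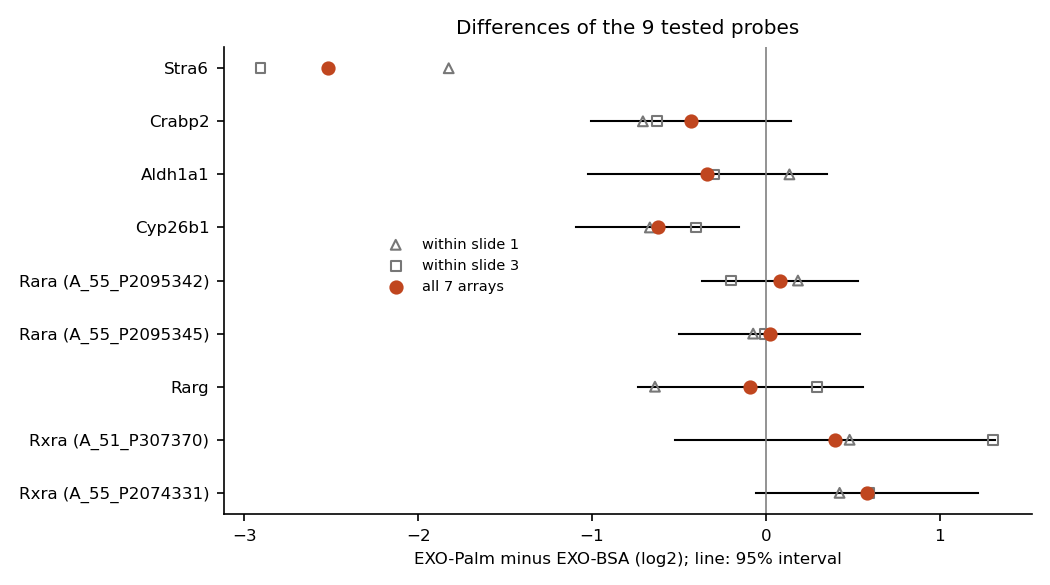
Difference EXO-Palm minus EXO-BSA (log2, horizontal axis) of the 9 tested probes over all 7 arrays (red points), within slide 1 (triangles) and within slide 3 (squares), with the 95% interval of the limma fit (lines). Stra6 has no interval because it was chosen by this contrast. Among the other 8 probes only the interval of Cyp26b1, -1.09 to -0.15, leaves out 0.

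The wider retinoid pathway was described with 78 further genes in 3 lists, all found on the array and each given by its brightest probe. The lists were made with earlier results of these data known, so their counts are a description. The shares over all tested probes include several probes for some genes. Of these 50 were tested, and 15 were higher and 35 lower in EXO-Palm, where 52.7% of all tested probes were lower. The median difference of the 50 was -0.17, where that of all tested probes was -0.02. None passed the adjusted threshold with limma, and 8 of the 50 had an unadjusted p under 0.05, where 10.0% of all tested probes did. In 7 of the 50 the EXO-Palm arrays were all below the EXO-BSA arrays, a larger share than the 5.67% of all tested probes. In 2 of the 50 they were all above, where 5.32% of all tested probes were. These shares were not tested against each other.

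The list of transport and metabolism genes held 39 genes, 22 of them tested, with 8 higher, 14 lower and a median of -0.12. Among the largest differences were lower values of Scarb1, Adh1 and Dhrs3. Adh1, an alcohol dehydrogenase that can oxidise retinol, read -0.01, -0.35, -0.11 and 0.18 in EXO-BSA and -2.62, -0.47 and -2.28 in EXO-Palm. The EXO-Palm arrays were all lower, with replicate 2 only just below the lowest EXO-BSA array. The difference was -1.72 (SE 0.468, limma adjusted p = 0.229). It passed the test with slide as a block, at -2.45 (limma, adjusted p = 0.033), and without EXO-Palm replicate 2, at -2.38 (limma, adjusted p = 0.012). These are not separate results, since EXO-Palm replicate 2 was alone on its slide and had no weight in the difference of the block fit.

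Scarb1, a lipoprotein receptor that also takes up carotenoids, owed its mean to 1 array. It read -1.57, -0.60, -0.32 and -1.35 in EXO-BSA and -1.29, -5.95 and -0.86 in EXO-Palm. EXO-Palm replicate 2 stood far below the other 6 arrays, and a second Scarb1 probe gave 0.33 in place of -1.74 (limma, adjusted p = 0.638). Without that array the difference of the first probe was -0.11.

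Dhrs3, which turns retinaldehyde back into retinol, read 2.85, 1.93, 2.24 and 2.14 in EXO-BSA and 1.67, 1.87 and 1.37 in EXO-Palm, without overlap. Its difference was -0.66 (SE 0.267, limma adjusted p = 0.464). Dhrs4 (0.61) and Rdh9 (0.61), both dehydrogenases and both singled out after their values were seen, were the 2 genes with all EXO-Palm arrays above the EXO-BSA arrays. Their adjusted p-values with limma were 0.451 and 0.516.

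The list of receptors and cofactors had 16 genes, all tested and all well above background on every array. Of these 4 were higher and 12 lower, with a median of -0.17 and differences from -0.61 to 0.21. The 4 largest were Nr2f1, an orphan receptor that binds the same repeats (-0.61, SE 0.263, limma adjusted p = 0.488), the coactivator Crebbp (-0.59, SE 0.255, limma adjusted p = 0.490), the orphan receptor Nr2c1 (-0.47, SE 0.260, limma adjusted p = 0.600) and the corepressor Nrip1 (-0.44, SE 0.248, limma adjusted p = 0.605). A second probe of Nr2f1 gave 0.28, while the second probes of Nr2c1 and Nrip1 were also lower, at -0.32 and -0.59.

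The list of retinoic acid targets, genes known from textbooks to respond to retinoic acid in some tissue, held 27 genes, some of which are also in the other lists, such as Dhrs3 and Cyp26a1 in the metabolism list and Nrip1 in the receptor list. Of 16 tested, 3 were higher and 13 lower, with a median of -0.41. In 5 the groups did not overlap, all with EXO-Palm lower, where 5.67% of all tested probes did not overlap in that direction. A shift of this list was not tested. Efnb1, a ligand of Eph receptors, read 2.50, 2.73, 2.09 and 2.71 in EXO-BSA and 1.15, 1.79 and 0.50 in EXO-Palm. Tgm2, a transglutaminase that crosslinks proteins, read 3.64, 3.63, 3.25 and 3.85 in EXO-BSA and 1.58, 2.92 and 2.50 in EXO-Palm. For both genes replicate 2 was the EXO-Palm array nearest to EXO-BSA.

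The differences were -1.36 for Efnb1 (SE 0.323, limma adjusted p = 0.162) and -1.26 for Tgm2 (SE 0.326, limma adjusted p = 0.204), whose second probe gave -0.81. Dhrs3, given above, was also among those with separate groups. Cyp26a1, whose upstream DNA holds the repeat shown above, read -3.67, -3.31, -3.61 and -2.83 in EXO-BSA and -3.98, -3.24 and -4.21 in EXO-Palm. Its groups overlapped through EXO-Palm replicate 2, and the difference was -0.46 (SE 0.308, limma adjusted p = 0.663). The 11 targets that could not be tested were near background, and 8 of the 27 were well above it on no array.

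**Figure D3:**
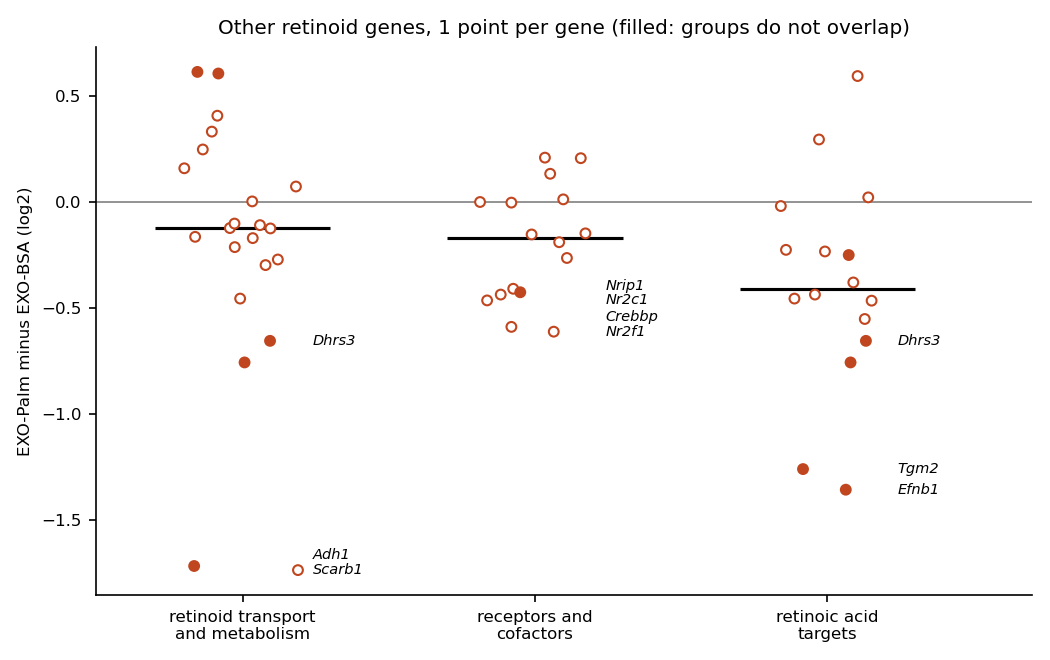
Difference EXO-Palm minus EXO-BSA (log2, vertical axis) of each tested gene in the 3 lists (horizontal axis), 1 point per gene, with the list median as a black line. Filled points are genes whose groups do not overlap, and the genes with large differences that the text describes are named, in order. The medians are -0.12, -0.17 and -0.41, and some genes, such as Dhrs3, Nrip1 and Cyp26a1, appear in more than 1 list.

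The lowest EXO-Palm array was replicate 1 for Adh1, Tgm2 and Cyp26b1 and replicate 3 for Efnb1 and Dhrs3, all of which were well above background on the 7 arrays.

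**Figure D4:**
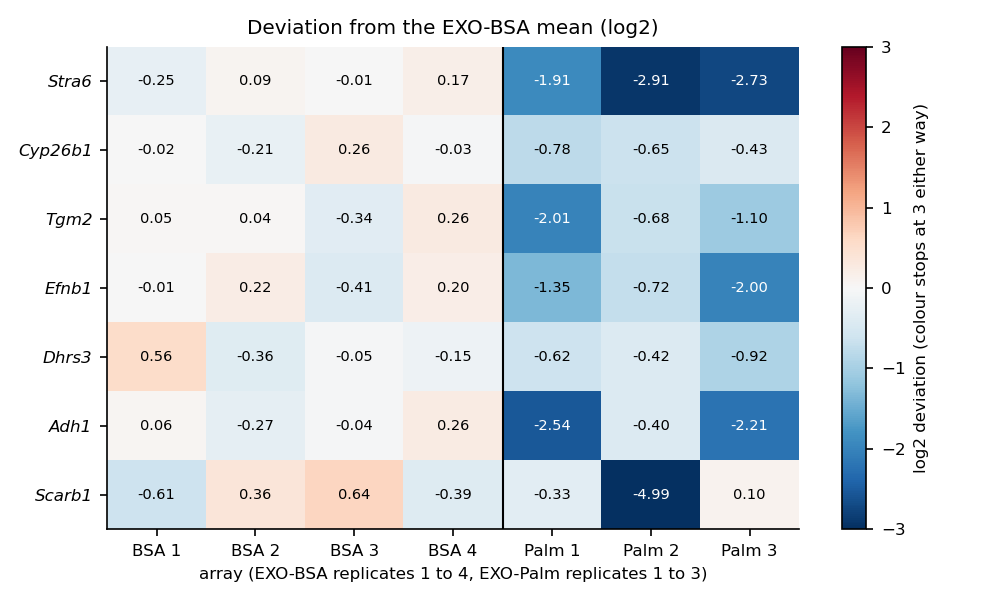
Deviation from the EXO-BSA mean (log2, colour and printed number) of 7 genes (rows) on each array (columns, EXO-BSA left of the line). The genes are Stra6, Cyp26b1 and genes with large differences among the transport, metabolism and target genes. All EXO-Palm squares are below the EXO-BSA squares of their row except for Scarb1, where EXO-Palm replicate 2 alone stands apart.

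The genes whose values ran most closely with Stra6 over the 7 arrays were Zfp185 (Pearson r = 0.993), a cytoskeletal LIM protein, the carbonic anhydrase Car12 (0.980), the DNA polymerase Polm (0.976), the ubiquitin ligase Ubr7 (0.971) and Lrp4 (0.970), a receptor of the neuromuscular junction. They were picked as the 5 highest of 17151 genes, and the points share the 2 groups and the same arrays, so these values are a description. Zfp185 read -2.89, -2.92, -3.07 and -2.45 in EXO-BSA and -5.00, -5.97 and -6.02 in EXO-Palm. Like Stra6, Zfp185 was well above background in EXO-Palm on replicate 1 alone, and Car12 was so on 2 of 3 EXO-Palm arrays. The difference between the groups was -2.83 for Zfp185, or -1.83 with dim values raised as above, and -2.52 for Car12, and it was smaller for Polm (-0.43), Ubr7 (-0.47) and Lrp4 (-0.67). Among the tested probes of the other 8 genes Cyp26b1 had the highest correlation with Stra6 (0.815), followed by Aldh1a1 (0.573) and Crabp2 (0.469). The Rxra probes were at -0.75 and -0.33. Of the dim probes that were not tested, the Rarb probe at the end of the transcript was higher than Cyp26b1, at 0.891. The other Rarb probe was at 0.599 and Crabp1 at 0.185.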

How the data were processed

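RNA (0.1 ug) of each culture was hybridised to a 1-colour Agilent mouse array. The authors deposited, per array, the scanner software's processed signal, a background-subtracted intensity of 44397 spots not normalised between arrays, with its flags, and a table of log2 values whose normalisation is not given in the sources used here (the labels name limma). The software was Agilent Feature Extraction 9.1 per the labels, while the headers give 10.7.3.1 for 6 arrays and 11.5.1.1 for EXO-BSA replicate 3. The log2 table was joined to spots by row order. Uneven and outlier spots were left out.

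The log2 intensity minus each array's 75th percentile was used. Probes entered the test when the scanner called them well above background on 75% or more of the arrays in either group. The comparison used limma 3.58.1 under R 4.3.3 (lmFit and eBayes), with Benjamini-Hochberg adjustment over 21585 probes and a threshold of 0.05, and single probes with 2-sided exact permutation tests. P-values measure the spread between these cultures, and the 7 arrays limit the precision. The fit was tested on simulated data. Alternatives covered the background correction (normexp, offset 50, on median signals, since 1 file lacks mean signals), normalisation, probe filter, slide, replicate number, test and each array left out. Probe positions are mm9, from the array files. Promoters are from RefSeq. Of the 78 list genes 2 were matched under an older name.

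The members and lists were chosen with earlier results of these data known. Named are all probes of the 9 genes, the genes of each list past the threshold with its 4 largest differences, and the 5 genes most like Stra6, beside genes marked as named after their values were seen. Some genes covered by these choices are left out of the text.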

Additional observations from a re-analysis of the deposited data

How the results depend on the processing

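The methods' t-test below is the Student's t-test that the study names for comparing means, while it names limma for its arrays. With the fit as reported, 115 of 21585 probes passed the threshold. No probe passed without the probe filter, with replicate number as a block or with the methods' t-test after Benjamini-Hochberg adjustment, where 1877, 1933 and 2108 had an unadjusted p under 0.05. There were 181 with slide as a random block, 173 with a trended and robust variance, 2108 with the methods' t-test unadjusted and 2169 with the unadjusted limma p, and 0 (without EXO-BSA replicate 1) to 202 (without EXO-Palm replicate 2) with 1 array left out. Of the probes of the 9 genes, 1 passed as reported. It was Stra6, which was chosen by this contrast, so nothing is read from its passing here or under the alternatives. There were 0 without the filter, with replicate number as a block and with the methods' t-test adjusted. The stricter filter of all 7 arrays also gave 0, but it left out Stra6, which was well above background on 5 arrays. There were 2 with the methods' t-test unadjusted or the unadjusted limma p. With an array left out there were 0 to 1 (0 without EXO-BSA replicate 1, EXO-BSA replicate 3 or EXO-Palm replicate 3). Of the other retinoid genes 0 passed as reported, 1 with slide as a block (Adh1), 7 with the methods' t-test unadjusted, 8 with the unadjusted limma p, and 0 to 1 with an array left out (Adh1, without EXO-Palm replicate 2). The slide block also gave EXO-Palm replicate 2, alone on its slide, no weight in the difference.

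Stra6 moved from -2.52 to -1.05 under normexp and to -1.69 in the authors' values and kept its sign under every alternative that gave a value. The second Rara probe changed sign under normexp (-0.12), with the median in place of the 75th percentile (-0.039), in the authors' values (-0.12), with slide as a block (-0.044) and with an array left out (-0.10 to 0.15). Rarg was -0.23 to 0.11 and Aldh1a1 -0.59 to 0.019 with an array left out. Crabp2, the first Rara probe, Rxra and Cyp26b1 kept their sign. Cyp26b1 (-0.62) passed without adjustment for the number of probes and under no adjusted setting (its exact permutation p is in the text). Replicate numbers only name the samples: deviations of same-numbered arrays correlated at 0.12, -0.15 and -0.15, and the numbers share no stated batch, so the replicate block is not a test of pairing.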
